A study of Mus musculus with 3 samples.

Results

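The transcripts described here belong to the Tribbles pseudokinases (Trib1, Trib2, Trib3) and to the insulin signalling route that they touch, namely the catalytic PI3K subunit gene Pik3ca, the kinase genes Akt1 and Akt2, and the forkhead factor genes Foxo1 and Foxo3. Members were chosen by gene name, and every probe on the array that carries 1 of these names was kept. They are 8 of the 24842 genes that the array names, read by 19 probes, of which 18 were well above background on all 3 arrays and 1 on none. Hepa1c1c7 cells, a line grown from a mouse hepatoma, had received an empty vector, a vector for Cd74 or a vector for Tmem54, and total RNA from each was hybridised in 1 colour (Cy3) to 1 Agilent mouse expression array. Cd74 is the invariant chain of MHC class II and a receptor for the cytokine MIF, and Tmem54 is a transmembrane protein. The labels give neither the promoter of the vectors, nor the time after transfection, nor whether the cells were a pool or a clone. All 3 groups share the same parental line and incubation, and the empty-vector cells carry the vector without an insert.

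Tribbles proteins have the fold of a kinase but little or no catalytic activity, and they act as scaffolds. Their C-terminal tail recruits the ubiquitin ligase COP1, which lets TRIB1 and TRIB2 direct the degradation of C/EBP alpha, and TRIB3 is known as a stress-induced protein that binds AKT. In liver cells, insulin receptors act through PI3K to make the lipid that recruits AKT to the membrane, and AKT phosphorylates FOXO factors, which then leave the nucleus and stop driving their target genes. Trib3 is itself a target of ATF4 and CHOP, the transcription factors of the integrated stress response, and is known for its induction in the fasted liver. None of this protein-level signalling is measured here: the arrays read messenger RNA only.

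Each value is the processed signal of a probe, a linear brightness, and arrays were compared on the log2 scale after subtracting the 75th percentile of each. Since 1 array stands for each vector, the spread among cultures is unknown, and differences carry neither a test nor a p-value. The error printed after a difference combines the model errors that the scanner software attaches to the signals of both arrays. Its multiplicative part was set at 0.1, and the printed error was near 0.20 for most member probes. It speaks of noise inside the arrays. A smaller measured noise is given by 287 probes printed 10 times on each array, whose Cd74 minus empty differences had a median SD of 0.029 (log2). A larger one is given by 4101 genes read by exactly 2 probes, whose Cd74 minus empty differences lay a median of 0.121 and, in the 90th percentile, 0.418 apart. Cd74 minus empty differences smaller than 0.418 cannot be told from a difference between probes. The same 90th percentile was 0.334 for Tmem54 minus empty and 0.455 for Cd74 minus Tmem54. In RNA from whole cultures, fewer cells of a kind and less RNA per cell cannot be told apart.

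The 3 arrays were alike in depth, with 33049 to 33896 of 59305 spots well above background and 0 saturated. The transfected genes stood on their labelled arrays: the Cd74 signal was 26.8 for empty, 10860 for Cd74 and 22.4 for Tmem54, and the Tmem54 signal was 2.78, 2.83 and 19750. Tmem54 was not well above background on the first 2 of these, so its difference is at least 1494-fold from empty and at least 1387-fold from Cd74. Of 15 hepatocyte and hepatoma markers 9 were detected, among them Afp (25520, 24690 and 26710 for empty, Cd74 and Tmem54) and Alb (5727, 2993 and 10260), while Ttr, Apoa1, Apob, Fgb, Hnf4a and H19 were not well above background. Of 10 leukocyte markers 7 were detected, including Ptprc (3711, 3096 and 3461), of 10 fibroblast markers 8, including Col1a1 (8430, 4747 and 10560), of 7 cholangiocyte markers 6, and of 7 endothelial markers 3. Summed over the detected markers and divided by the 75th percentile, the hepatocyte list stood at 126.83, 109.26 and 140.51, the fibroblast list at 132.35, 140.19 and 119.2, the leukocyte list at 15.04, 14.23 and 14.7, the cholangiocyte list at 58.64, 52.39 and 63.71, and the endothelial list at 0.23, 0.18 and 0.2. These sums rest on the brightest probes: Dcn (67720, 75620 and 57020) sets that of the fibroblast list, of which 7 of 8 markers were below empty with Cd74 (median -0.14). With Cd74 the median of the hepatocyte markers was -0.20 (4 above, 5 below), of the leukocyte markers -0.14, of the cholangiocyte markers -0.10 and of the endothelial markers -0.25. The part of these markers in the results below was not tested.

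Of the 8 genes, Trib3 alone differed by at least 2-fold between the Cd74 and the empty vector. It was 3.06-fold higher with Cd74, while Foxo3 and Foxo1 were 1.37-fold and 1.26-fold higher. Trib1, Trib2, Akt1, Akt2 and Pik3ca lay within 1.22-fold of the empty vector. Each gene is read here by its brightest probe, and the 4 Foxo3 probes ranged from 0.00 to 0.45 (log2). That is 1 of 8 genes at 2-fold, and the same 1 of 8 at 1.5-fold, where 2.42% of the 15630 genes compared passed 2-fold and 7.52% passed 1.5-fold. Between Tmem54 and empty 0 of 8 passed either limit, against 1.33% and 3.81% of 15521 genes. Between Cd74 and Tmem54, 1 of 8 passed 2-fold (Trib3, higher with Cd74), against 3.32% of 15423 genes, and 2 of 8 passed 1.5-fold (Trib3, higher, and Trib2, lower), against 9.86%. The median difference of the 8 genes was 0.01 for Cd74 minus empty, 0.01 over all genes, and -0.06 for Tmem54 minus empty, 0.00 over all genes. The median of the members thus lay within 0.06 of that of all genes in both comparisons. Both comparisons with the empty vector use the same empty array, so an error in that array enters both.

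**Figure D1:**
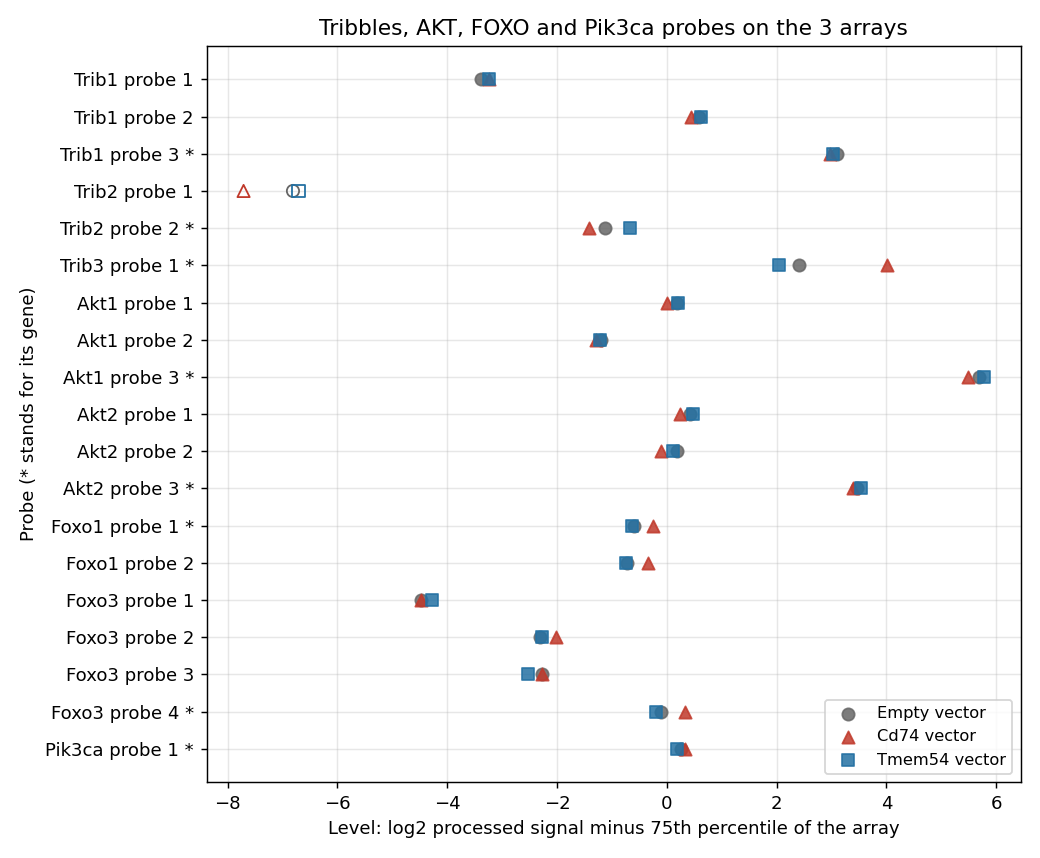
Level of each of the 19 probes (rows) on the 3 arrays, as the log2 signal after subtraction of the array's 75th percentile; filled markers are well above background, open markers are not, and * marks the probe that stands for its gene. The Trib3 markers are the widest apart, from 2.05 with Tmem54 to 4.01 with Cd74; levels of different probes are not comparable with each other.

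Trib3, the stress-induced member of the family, was read by 1 probe at chr2:152163161-152163220 (build mm9, minus strand, the strand of the gene). Its signal was 3624 with the empty vector, 10580 with Cd74 and 2864 with Tmem54. The Cd74 array was the highest and the Tmem54 array the lowest. The log2 difference was 1.61 ± 0.20 for Cd74 minus empty, -0.35 ± 0.20 for Tmem54 minus empty (1.28-fold lower) and 1.96 ± 0.20 for Cd74 minus Tmem54 (3.90-fold). The series description names Trib3 as raised by Cd74, so this direction is not independent evidence for it. Among bright genes, those well above background on all 3 arrays with a signal at or above the median of detected probes, Trib3 ranked 6 from the top of 10028 for Cd74 minus empty and 12 of 10056 for Cd74 minus Tmem54. For Tmem54 minus empty it ranked 79 from the bottom of 9945. No second probe reads Trib3, so its value has no check between probes.

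The Trib3 probe and the start of the gene are shown, 5′ to 3′ on the strand of the gene, because Trib3 is the member that differed most. Of the probe the 30 bases around the letters AATAAA, the polyadenylation signal (capitals), are given, letters found near the end of transcripts. The 250 bases before the Trib3 start site (RefSeq, build GRCm38.p6, chr2:152344061-152344310, minus strand) are printed with the letters TGGTGCAA in capitals, and the 30 bases from 4 to 33 after the start (chr2:152344028-152344057) with TTACATCA in capitals.
Trib3 probe, 30 bases: catcatgtgcccAATAAAagagagctgtgt
Trib3 upstream: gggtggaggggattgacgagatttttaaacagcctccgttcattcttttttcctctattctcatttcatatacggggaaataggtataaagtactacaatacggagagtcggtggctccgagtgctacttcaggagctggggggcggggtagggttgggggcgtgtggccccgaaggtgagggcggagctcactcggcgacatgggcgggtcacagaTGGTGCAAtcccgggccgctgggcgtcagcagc
Trib3 after the start: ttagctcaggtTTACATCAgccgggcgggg

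TTACATCA is, read on the opposite strand, a match to the composite element TGATGNAA through which C/EBP and ATF factors bind, and it lies 15 to 22 bases after the start. Searched on both strands of 300 bases around each start, TGATGNAA occurs in 4.0% of 32851 promoters and in 9 of 31 promoters of the list of ATF4 and CHOP targets used below. Of the 11 promoters of 7 members in the table (Trib1 is not among them), the element is also in 1 of Akt2, 85 bases before that start. The letters TGNTGCAA, chosen after the Trib3 sequence had been read, are in 3.2% of all promoters and in 9 of the 31, and a TGATGNAA whose N is C is counted under both. The forkhead motif TGTTTAC is in 3.6% of all promoters and in 18.2% of 44 promoters of FOXO targets, and among the members in 1 promoter of Akt1, 161 bases before its start. In the members no 2 matches overlap. A match of letters is a description and does not show that a factor binds there.
Akt2 upstream, TTTCATCA in capitals, chr7:27605547-27605796, plus strand: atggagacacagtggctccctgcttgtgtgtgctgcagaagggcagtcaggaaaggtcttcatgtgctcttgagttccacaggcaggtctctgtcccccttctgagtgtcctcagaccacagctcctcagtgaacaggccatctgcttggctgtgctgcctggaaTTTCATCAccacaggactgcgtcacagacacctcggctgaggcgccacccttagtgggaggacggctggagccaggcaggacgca
Akt1 upstream, TGTTTAC in capitals, chr12:112674885-112675134, minus strand: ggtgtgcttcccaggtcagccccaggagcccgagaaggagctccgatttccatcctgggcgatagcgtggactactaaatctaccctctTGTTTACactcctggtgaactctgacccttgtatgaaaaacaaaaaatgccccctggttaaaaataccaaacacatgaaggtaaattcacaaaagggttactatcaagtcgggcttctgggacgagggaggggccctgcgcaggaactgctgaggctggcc

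Trib2, which targets C/EBP alpha and is known as an oncogene of myeloid leukaemia, had the opposite order of arrays to Trib3. Its detected probe (chr12:15799009-15799068, mm9) read 315.3 for empty, 247.8 for Cd74 and 434.4 for Tmem54. Tmem54 was thus the highest array for Trib2 and the lowest for Trib3, and Cd74 the reverse. The differences were -0.28 ± 0.21 for Cd74 minus empty, 0.45 ± 0.20 for Tmem54 minus empty and -0.73 ± 0.20 for Cd74 minus Tmem54 (1.66-fold). Trib2 ranked 17 from the top of 9945 bright genes for Tmem54 minus empty. A second probe, at chr12:15823304-15823363, had signals of 6.10, 3.13 and 6.62, not well above background on any array, and gives no difference.

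Trib1, a regulator of hepatic lipogenesis and of plasma lipids, showed no difference beyond the gap between probes. The probe that stands for it (chr15:59487848-59487907) read 5872 for empty, 5174 for Cd74 and 5641 for Tmem54, a difference of -0.12 ± 0.20 and of -0.07 ± 0.20 from empty. A second probe (chr15:59484641-59484700) had 1030, 892.1 and 1062, with differences of -0.14 and 0.03. The third (chr15:59478801-59478860) lies on the strand opposite to the gene, 9.0 kb from the last probe, and targets a cDNA other than a RefSeq mRNA. It had 66.1, 69.6 and 73.9, with differences of 0.14 and 0.15, the other direction from both sense probes for Cd74. Stk40, the more distant relative of the family, had 1624, 1381 and 1974, differences of -0.17 and 0.27. Of the 4 family genes, Trib3 was thus above empty with Cd74 and the other 3 below, with a family median of -0.14.

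**Figure D2:**
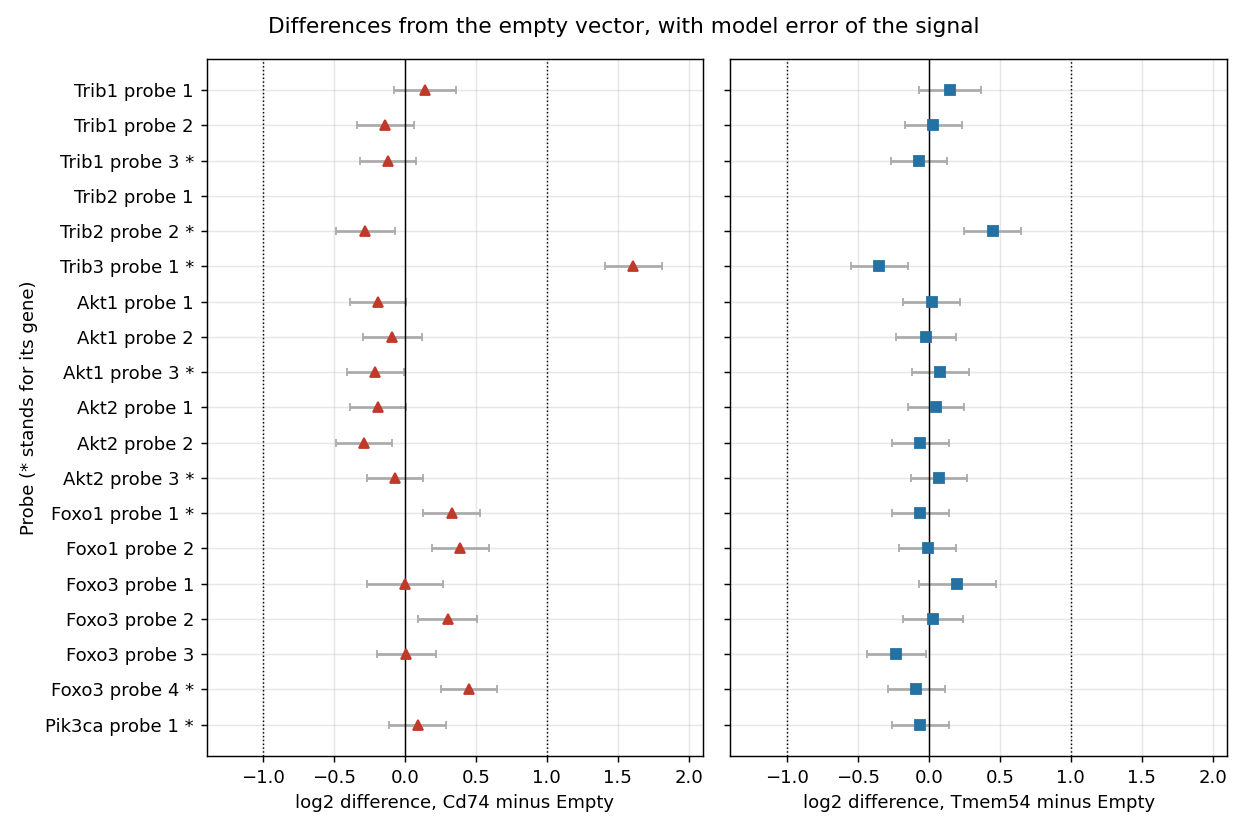
Log2 difference of each probe from the empty vector, for Cd74 (left) and Tmem54 (right). Bars are the model error of the difference, and dotted lines mark 2-fold. Trib2 probe 1 was not well above background and has no point. Trib3 at 1.61 is the sole point past a dotted line, the Foxo1 probes lie together at 0.33 and 0.39, and the Foxo3 probes spread from 0.00 to 0.45.

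Pik3ca encodes the p110 alpha catalytic subunit of class I PI3K, which generates the lipid signal upstream of AKT. Its 1 probe (chr3:32364747-32364806) read 817.8 for empty, 830.6 for Cd74 and 790.4 for Tmem54. The differences of 0.09 ± 0.20 and -0.06 ± 0.20 from empty were below the model error, and the sign of the first turned under another scaling (range -0.03 to 0.10). The 3 arrays were therefore not separated for Pik3ca.

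Akt1, the AKT kinase of growth and survival, was slightly lower on the Cd74 array by all 3 of its probes. The probe that stands for the gene (chr12:113892079-113892138) read 35400 for empty, 29260 for Cd74 and 37730 for Tmem54. Its differences were -0.21 ± 0.20, 0.08 ± 0.20 and, for Cd74 minus Tmem54, -0.29 ± 0.20. Probe 2 (chr12:113894094-113894153) had 299.5, 268.6 and 297.5, and probe 1, whose ends lie 9267 bases apart on the genome (chr12:113900509-113909775), had 783.9, 658.5 and 802.5. Their Cd74 minus empty differences were -0.09 and -0.19, so the 3 probes lay 0.12 apart. Probe 1 is shown because it holds an ATG (capitals) followed by an open reading frame, and so reads the 5′ end of the message where the other probes read further along it.
Akt1 probe 1: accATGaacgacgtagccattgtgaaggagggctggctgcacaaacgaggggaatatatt

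Akt2, the AKT isoform known for insulin-stimulated glucose uptake and hepatic lipid synthesis, followed Akt1. Probe 3, which stands for it (chr7:28424405-28424464), read 7610 for empty, 6926 for Cd74 and 8044 for Tmem54, differences of -0.07 ± 0.20 and 0.07 ± 0.20. Probe 1 (chr7:28418226-28418285) had 922.1, 775.2 and 961.9, and probe 2 (chr7:28421973-28422113) had 778.1, 607.6 and 754.4, with Cd74 minus empty differences of -0.19 and -0.29. All 6 Akt1 and Akt2 probes had the Cd74 array lowest, by 0.07 to 0.29 below empty. This exceeded the model error for Akt1 probe 3 and Akt2 probe 2 alone, and none of the 6 reached the gap of 0.418 between probes. Tmem54 minus empty ran from -0.06 to 0.08 over these probes, and for Akt1 probes 1 and 3 and Akt2 probes 1 and 3 its sign turned under another scaling. Of Akt2 probe 3 the 30 bases around AATAAA are given, for comparison with the Trib3 probe.
Akt2 probe 3, 30 bases: tacggtacaagcAATAAAgacactcatttc

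Foxo1, the FOXO factor that drives hepatic gluconeogenesis, was higher on the Cd74 array by both probes. Probe 1 (chr3:52150946-52151005) read 457.3 for empty, 551.3 for Cd74 and 443.6 for Tmem54, and probe 2 (chr3:52153289-52153348) had 415.9, 520.3 and 416.1. The Cd74 minus empty differences were 0.33 ± 0.20 and 0.39 ± 0.20, 0.06 apart, and both were below the gap of 0.418 between probes. The Tmem54 minus empty differences were -0.06 and -0.01, so the empty and Tmem54 arrays were not separated. Foxo1 ranked 698 from the top of 10028 bright genes for Cd74 minus empty, and its first probe ranged from 0.21 to 0.33 over the other settings.

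Foxo3, a FOXO factor of stress resistance, autophagy and cell death, was read by 4 probes that differed among themselves. Probe 4, the brightest (chr10:41901997-41902056), read 636.0 for empty, 833.2 for Cd74 and 602.0 for Tmem54, differences of 0.45 ± 0.20 and -0.09 ± 0.20. Probe 2 (chr10:41967288-41967347) had 138.3, 163.0 and 142.5, with differences of 0.30 and 0.03. In both of these, which target Ensembl transcripts, the Cd74 array was the highest. Probe 3 (chr10:41916349-41916408) had 140.9, 135.7 and 120.9, and probe 1 (chr10:41994961-41995020) had 30.8, 29.5 and 35.8, with Cd74 minus empty differences of 0.01 and 0.00. The 4 probes thus ranged over 0.45 with a mean of 0.19, and probe 1, the dimmest, had a model error of 0.27. Probes 3 and 1 target RefSeq mRNA. Foxo4, the third FOXO gene detected, had dim signals of 33.7, 27.1 and 20.9, and Foxo6 was not well above background.

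**Figure D3:**
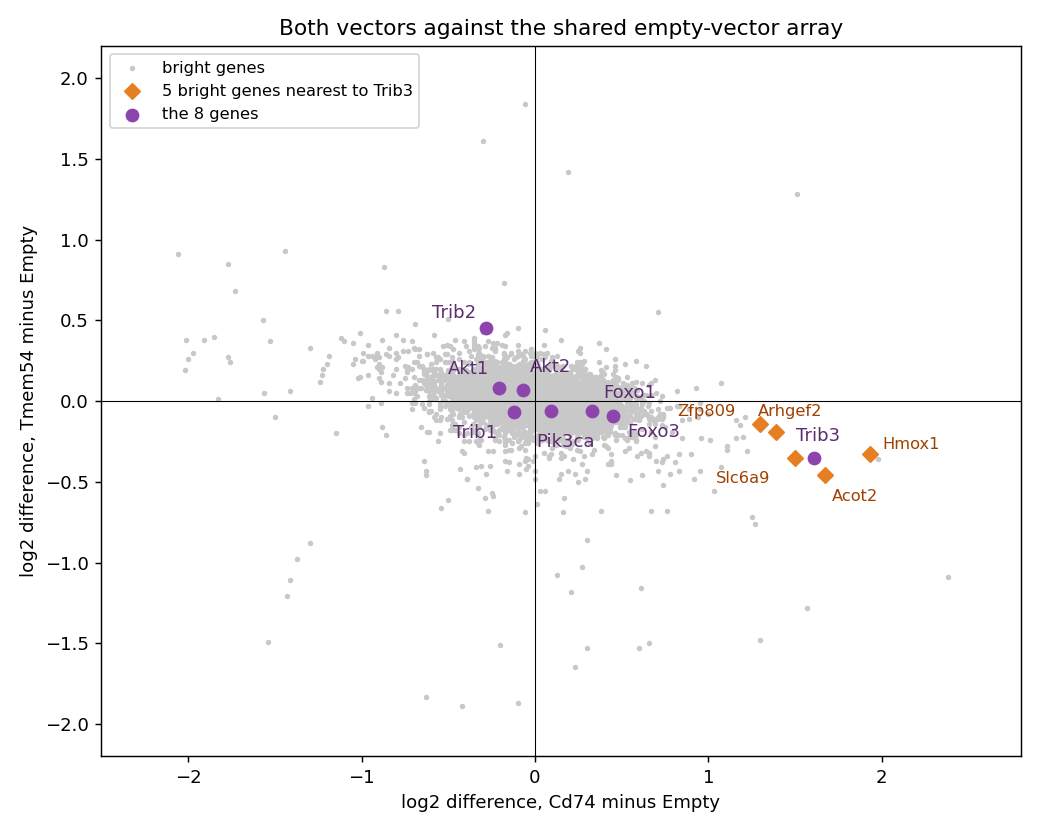
Each point is a bright gene, with its log2 difference from the empty vector for Cd74 (horizontal) and Tmem54 (vertical); purple circles are the 8 members, orange diamonds the 5 bright genes nearest to Trib3, and genes beyond the axes are not drawn. Trib3 lies at 1.61 and -0.35, far to the right of the other members, and both axes use the same empty array.

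The 5 bright genes whose pair of differences lay nearest to that of Trib3 were taken by distance in the plane of both differences, over 3 arrays and 10078 bright genes. Slc6a9, a glycine transporter, was nearest, with signals of 1748, 4711 and 1380 and differences of 1.5 and -0.35. Acot2, a mitochondrial acyl-CoA thioesterase, had 332.2, 1013 and 243.3, and Arhgef2 had 633.2, 1584 and 558.2. Hmox1, the heme oxygenase of the oxidative stress response, had 7550, 27450 and 6076, and Zfp809, a zinc finger protein that silences retroviruses, 143.7, 338.8 and 131.1. They share the order of arrays of Trib3 because they were chosen by these same differences. With 3 arrays, nearness in this plane is a weak measure of likeness.

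The rest of the pathway was described with 11 gene lists covering 167 genes, of which 154 were compared and 13 were not well above background. Of the 154, 16 were at least 1.5-fold higher and 2 lower with Cd74 than with empty, 11.7% against 7.52% of all genes. Of these, 11 of the higher genes are in the list of ATF4 and CHOP targets and 1 is Trib3. Outside that list and the 8 members, 4 of 118 genes were higher and 2 lower, or 5.08%. With Tmem54, 1 of the 154 was higher and 3 were lower, 2.6% against 3.81%. Among bright genes alone, 2.92% passed 1.5-fold for Cd74 and 0.362% for Tmem54, each against empty. The lists hold bright and dim genes, so neither the share of all genes nor that of bright genes is matched to them. The lists share genes with each other and with the 8 members, and no list was tested. Centring each array on the median of its detected spots shifted all genes by -0.12 for Cd74 and by -0.13 for Tmem54, so small medians below can turn sign with the scaling. Their values are given by role, from the proteins that bind Tribbles to the targets of FOXO and ATF4.

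**Figure D4:**
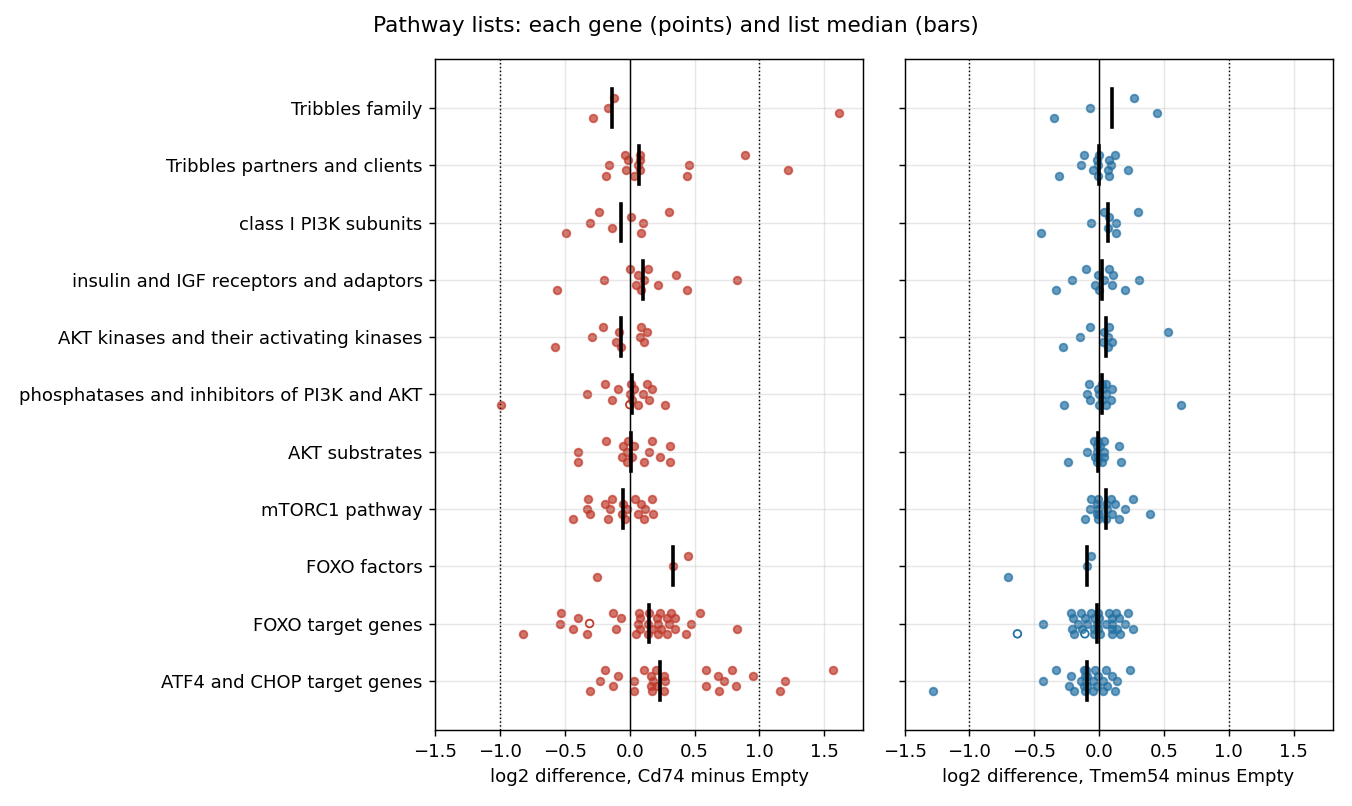
Log2 difference from the empty vector of each gene (points) in the 11 lists, for Cd74 (left) and Tmem54 (right); black bars are list medians, open circles are bounds, and dotted lines mark 2-fold. On the Cd74 array the ATF4 and CHOP targets have a median of 0.23 and the 3 FOXO factors 0.33, and Trib3 at 1.61 is the rightmost point. The medians of the PI3K, AKT kinase and mTORC1 lists lie between -0.07 and -0.05. Those of the AKT substrates and of the phosphatases and inhibitors are 0.01 and 0.02.

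Among the partners and clients of Tribbles, 14 of 15 were compared and Cebpa, the client of TRIB1 and TRIB2, was not well above background. With Cd74, 9 lay above empty and 5 below, with a median of 0.07 against 0.01 over all genes. Sqstm1, the autophagy receptor that TRIB3 binds, had 43790 with the empty vector, 97570 with Cd74 and 35550 with Tmem54, a difference of 1.22 ± 0.20, although its 3 probes ranged from 0.24 to 1.22. Ddit3, which encodes CHOP, had 1046, 1855 and 1018, a difference of 0.89 (0.38 by its other probe). Both had the Cd74 array highest, as Trib3 did, but both were named for the size of their differences. Atf4 had 63630, 83570 and 69620, a difference of 0.46, and Cebpb, a C/EBP factor of the stress and acute phase responses, 17030, 22030 and 15580, a difference of 0.44. Cop1, the ligase that Tribbles recruit, differed by -0.18, but by 0.28 at its other probe, and the MEK gene Map2k1 by 0.08 (-0.03 at its other probe). The sign of the median turned under 2 settings, centring on the median and reading the next-brightest probe.

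The list of class I PI3K subunits also holds Pik3ap1, an adaptor, and Pik3ip1, an inhibitor, which are not subunits. Of its 11 genes 8 were compared, 4 above empty and 4 below with Cd74, with 0 at 1.5-fold. Pik3ap1, dim at 33.1, 22.5 and 24.4, was among those below (-0.49), and Pik3ip1 was not well above background. Pik3cd, a catalytic subunit of leukocytes, differed by 0.30, but its 4 probes ranged from -0.28 to 0.30. Pik3r1, the main regulatory subunit, had 387.7, 335.3 and 481.7, differences of -0.14 for Cd74 and 0.30 for Tmem54. Pik3r2 differed by -0.24 and 0.13, with its other probe at 0.34 for Cd74. The genes of this list gave no shared direction. Their median of -0.07 became 0.19 with the next-brightest probes and 0.01 among bright genes, which leave out Pik3ap1.

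Of the receptors and adaptors of insulin and IGF signalling 12 of 14 were compared, 10 above empty and 2 below with Cd74, with a median of 0.10. The adaptor gene Sh2b2 had 763.4, 1296 and 613.1, a difference of 0.83 for Cd74 (0.48 by its other probe) and -0.33 for Tmem54, and was the 1 gene of the list at 1.5-fold. Grb14, an inhibitor of the insulin receptor, differed by 0.44 and the adaptor gene Gab2 by 0.36. Irs1 and Irs2, which couple the receptor to PI3K, had 10010, 9881 and 10690 and 3224, 3215 and 3483, within 0.10 of empty. The median was -0.02 when arrays were centred on the median of detected spots.

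Among the 10 AKT kinases and their activating kinases, 4 lay above and 6 below empty with Cd74, with a median of -0.07 and 0 at 1.5-fold. Mapkap1, a subunit of the mTORC2 complex that phosphorylates AKT, had 733.3, 574.9 and 791.3, a difference of -0.29. Pdpk1, which encodes the PDK1 kinase, differed by 0.11 and Rictor by 0.09, with 5 Rictor probes from -0.15 to 0.10.

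The 16 phosphatases and inhibitors of the pathway had a median of 0.02 with Cd74, which ranged from -0.10 to 0.03 over the settings. Inpp5e differed by -0.33 (3 probes, -0.33 to -0.06) and Inpp5j by 0.27 (0.61 at its other probe), both inositol lipid phosphatases. The 1 gene past 1.5-fold, Inpp4b, was dim (56.8, 27.4 and 47.6) and differed by -0.99. The 16 AKT substrates had 8 above and 8 below empty, with a median of 0.01 (-0.11 to 0.03 over the settings) and 0 at 1.5-fold. Cdkn1b, the cell cycle inhibitor p27, had 2527, 1827 and 2832, a difference of -0.40 (-0.77 by its other probe), and Tsc1 and Casp9 differed by 0.31 each. Palld, an actin-binding protein, differed by -0.40, but its 4 probes ranged from -0.40 to 1.13. Gsk3a and Gsk3b, the glycogen synthase kinases, differed by -0.02 and -0.06 with Cd74, and the 4 Gsk3b probes ranged from -0.28 to -0.02.

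The 19 genes around mTORC1, the growth complex downstream of AKT, had 7 above and 12 below empty with Cd74, a median of -0.05 and 0 at 1.5-fold. Among its inhibitors the differences had both signs. Sesn1 had 698.6, 491.8 and 806.9, a difference of -0.44, Sesn3 859.8, 654.9 and 1041, a difference of -0.33, and Ddit4 14320, 11040 and 15510, a difference of -0.31. In these 3 genes the Tmem54 array was the highest, with differences of 0.20, 0.26 and 0.10 from empty. Deptor, dim at 119.0, 91.1 and 133.6, differed by -0.32, with probes from -0.64 to 0.27. Sesn2, the sestrin of the ATF4 response, differed by 0.18 and Ddit4l by 0.12.

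Of 38 FOXO targets 34 were compared. With Cd74, 24 lay above empty and 10 below, with a median of 0.15 against 0.01 over all genes, a range of 0.03 to 0.16 over the settings, and 1 gene at 1.5-fold in each direction. With Tmem54, 14 lay above and 20 below, with a median of -0.02. Gadd45b, a stress and DNA damage gene, had 2956, 5021 and 2214, a difference of 0.83 for Cd74 and -0.43 for Tmem54, and Gadd45a 427.8, 594.1 and 370.5, a difference of 0.54. Ccnd1 and Plk1, a cyclin and a mitotic kinase, differed by -0.82 and -0.54 with Cd74. Other genes of the list below empty were Selenop (-0.53), Sesn1 (-0.44), Cdkn1b (-0.40) and Sesn3 (-0.33). FOXO factors are known to repress Ccnd1 and to induce Sesn1, Sesn3 and Cdkn1b, so the list mixes both directions. The hepatic targets Igfbp1 and Pck1 were not well above background, and G6pc was so on the empty array alone, at 17.5. Ppargc1a, a coactivator of gluconeogenesis in the same list, was detected on all 3 arrays (581.2, 508.8 and 591.2, a difference of -0.13 for Cd74).

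Of 30 ATF4 and CHOP targets, a list that does not hold Trib3, 28 were compared. Like the other lists, it was chosen with earlier results of these data known. With Cd74, 23 lay above empty and 5 below. Their median was 0.23 (range 0.11 to 0.26 over the settings) against 0.01 over all genes. Of the 28, 11 were at least 1.5-fold higher, 3 of them at least 2-fold, and 0 lower. In either direction, 7.52% of all genes passed 1.5-fold and 2.42% passed 2-fold, or 2.92% and 0.608% of bright genes. Among the 11, Nupr1 (0.79), Slc3a2 (0.59) and Dnajb9 (0.73) also had probes at 0.06, 0.11 and 0.48. All probes of Atf5, Asns and Slc7a11 passed 1.5-fold. Atf3, Chac1, Ppp1r15a, Gdf15 and Ero1a had 1 detected probe each, so they have no check between probes. Slc7a11, the cystine transporter, had 249.1, 704.5 and 103.7, a difference of 1.57 for Cd74 and -1.28 for Tmem54. Ppp1r15a, the phosphatase subunit GADD34, had 5767, 12700 and 4994, and Chac1, which degrades glutathione, 2188, 4659 and 1878, differences of 1.2 and 1.16. Atf3 had 382.5, 704.0 and 286.4, a difference of 0.95 for Cd74 and -0.43 for Tmem54. These 4 genes had the order of arrays of Trib3. They were named for having the largest differences of the list, so their likeness to Trib3 follows in part from that choice. Other targets differed less or the other way: Ddit4 differed by -0.31, the serine synthesis gene Psat1 by -0.13 and Phgdh by 0.16. With Tmem54, 8 lay above and 20 below empty, with a median of -0.09 and 1 gene (Slc7a11) past 1.5-fold.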

How the data were processed

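Total RNA of 3 transfected Hepa1c1c7 cultures, 1 per vector, was read on 3 arrays of 1 slide. Groups follow the transfection label. The authors' deposited files hold spot intensity as a background-subtracted and detrended processed signal. The submitters' processing notes name Agilent Feature Extraction 12.0.3.1, as do the file headers. The deposited value table is a ratio of that signal to 1 constant per array (580.3 for empty, 559.8 for Cd74 and 580.7 for Tmem54), uncentred and linear, with column medians of 0.0409, 0.0393 and 0.039. It was used as an alternative only.

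Control spots and 119 to 135 outlier-flagged spots per array were left out. Levels are the log2 of that signal after subtracting the array's 75th percentile, with replicate spots averaged and no pseudocount (0). Differences in which 1 array was not well above background are bounds: the dim side was taken as its array's lowest well-above-background signal or the probe's own, whichever was higher. A gene took its brightest detected probe. Symbols were matched to RefSeq (GRCm38.p6) by accession for 33767 of 56605 probes, by symbol for 9866 and by synonym for 310, while 12662 had none. Probe coordinates are on mm9, per the file headers, and promoters on GRCm38.p6, and none were converted. Exon and UTR annotation of the probes was not used here.

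The members and lists were chosen with earlier results of these data known. Genes named are all members, up to 4 bright genes per list and array with the largest difference from empty, the transfected genes, and the 5 bright genes nearest to Trib3; a few others were named after their values were seen. The scaling and the probe differences were tested on simulated data, while the bounds, the choice of probe per gene and the list counts were not. Alternatives were normexp (limma 3.58.1 in R 4.3.3, offset 50), median centring, percentiles of detected probes, quantile normalization, other filters on dim or flagged spots, and other rules for probes. Figures used Python 3.11.15. The number of arrays limits the precision. A few genes of the lists are counted in the list values but not reported here by name.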

Additional observations from a re-analysis of the deposited data

How the results depend on the processing

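Each of the 54 member probe differences was recomputed under 6 other settings, and all 324 values moved by less than the model error. That limit is wide, as every model error of these probes was 0.20 or more. Centring on the median shifted all genes by -0.12 for Cd74 and -0.13 for Tmem54 (each minus empty). The sign turned in 10 of the 54, whose main size was at most 0.09 (log2). Trib3 ranged from 1.49 to 1.61 for Cd74 minus empty, from -0.48 to -0.34 for Tmem54 minus empty and from 1.91 to 1.98 for Cd74 minus Tmem54, and Trib2 from -0.76 to -0.62 in the last. With the next-brightest probe per gene, the members at least 2-fold and at least 1.5-fold apart numbered 0 for Cd74 minus empty and 0 for Cd74 minus Tmem54, because Trib3 has 1 probe and 5 members have a second. Of 288 list medians 285 moved by less than 0.205, the model error of a single difference. Most list medians were smaller than this limit, so a median could shrink or turn sign within it. That of the FOXO targets with Cd74 fell from 0.15 to as low as 0.03. The 3 others came from the setting with next-brightest probes. They were 0.19 for the PI3K list (Cd74 minus empty), and -0.35 and 0.38 for insulin receptors and adaptors (Tmem54 minus empty and Cd74 minus Tmem54).

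Counts over all genes depended more on the setting. At 2-fold, 379 of 15630 genes for Cd74 minus empty (2.42%) became 119 of 15628 with normexp (0.761%), 61 of 10028 bright genes (0.608%), 99 of 6902 with next-brightest probes (1.43%) and 1613 of 24841 with no filter (6.49%). In the same order, the 207 genes for Tmem54 minus empty (1.33%) became 66 (0.425%), 17 (0.171%), 67 (0.974%) and 1351 (5.44%), and the 512 for Cd74 minus Tmem54 (3.32%) became 197 (1.28%), 133 (1.32%), 131 (1.92%) and 1702 (6.85%). At 1.5-fold, 1176 became 421, 293, 431 and 3499, 591 became 157, 36, 232 and 2867, and 1521 became 695, 522, 591 and 3809. Centring on the median of detected spots lowered the share of higher genes at 2-fold from 42.2% to 30.3% for Cd74 minus empty, and at 1.5-fold from 45.0% to 25.3% there and from 34.7% to 17.8% for Tmem54 minus empty, where quantile normalization gave 46.4%. Most calls over all genes thus lay outside the bright genes, while all 8 members are bright. No paired analysis was possible because each vector has 1 array.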
